A study of Mus musculus with 10 samples.

Results

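The comparison described here is that of mouse mammary epithelial cells transfected with an siRNA against Irf1 and left without TGFbeta, against the same cells with a control siRNA. All libraries labelled siIrf1 or siCtr at time t0d were taken, which gave 3 siIrf1 libraries (replicates 1, 2 and 3) and 2 siCtr libraries (replicates 1 and 3), 5 of the 10 libraries of the series. The cells were NMuMG/E9, subclone 9 of the NMuMG line of normal mouse mammary gland, so that all libraries stem from 1 subclone of 1 line. Cells of all groups were transfected with 20 nM siRNA and harvested on day 3. The 0 d cells had no TGFbeta at any time, and the 5 other libraries came from cells with the same siRNAs given 2 ng/ml recombinant human TGFbeta1 for the last 2 days. Total RNA was made into stranded libraries and sequenced. The labels number the replicates but do not say whether they were separate cultures, so p-values measure the spread between these libraries, which may be technical. The labels do not say whether siIrf1 was 1 siRNA or a pool, and a second siRNA against Irf1 was not analysed here.

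Irf1 encodes interferon regulatory factor 1, a DNA-binding protein that is induced by interferons and keeps a basal level of interferon-stimulated genes in many epithelial cells. Among its best known targets are genes of MHC class I antigen presentation, in which the immunoproteasome cuts proteins into peptides, the Tap1 and Tap2 transporter carries them into the endoplasmic reticulum, and tapasin (Tapbp) helps to load them onto class I heavy chains bound to beta-2-microglobulin (B2m). NMuMG cells form an epithelial sheet with E-cadherin junctions and are a standard model in which TGFbeta induces an epithelial-mesenchymal transition (EMT). The 0 d comparison therefore asks what Irf1 does in the cells in their epithelial state.

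Irf1 (chromosome 11, 53770014 to 53778374, GRCm38) was lower in each siIrf1 library. Its level was 148 and 129 CPM, counts scaled to the size of the library, in siCtr replicates 1 and 3, and 56.4, 64.1 and 57.7 CPM in siIrf1 replicates 1, 2 and 3. The groups did not overlap, and the means were 138 ± 13.4 CPM (SD, n = 2) and 59.4 ± 4.17 CPM (SD, n = 3). Irf1 fell by 1.22 in log2 terms (SE 0.15, adjusted p = 7.95e-04, edgeR quasi-likelihood test with Benjamini-Hochberg adjustment over 13135 genes). Between libraries of the same replicate number the log2 ratio was -1.39 in replicate 1 and -1.16 in replicate 3. A gene is called changed below where its adjusted p in this test is under 0.05.

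Library totals at 0 d ranged from 27547649 to 42083732 counts, and 13135 of 24454 genes had enough counts to be tested. Of these, 2136 were called higher with siIrf1, 16.3% of the genes tested, and 2039 were called lower, 15.5%. These changes followed the base composition of the genes. Genes called higher had a median GC content of 43% and genes called lower one of 53.8%, against 50.1% for genes not called. In the quintile of lowest GC content 1246 of 2605 were called higher and 29 lower, while in the quintile of highest GC content 63 were called higher and 681 lower. Across 13023 genes the log2 fold change and GC content had a Pearson correlation of -0.538, given as a description, since all genes come from the same 5 libraries. Among the genes of lowest GC content the median log2 fold change ran from 0.68 in the shortest quintile of genes to 1.71 in the longest.

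**Figure D1:**
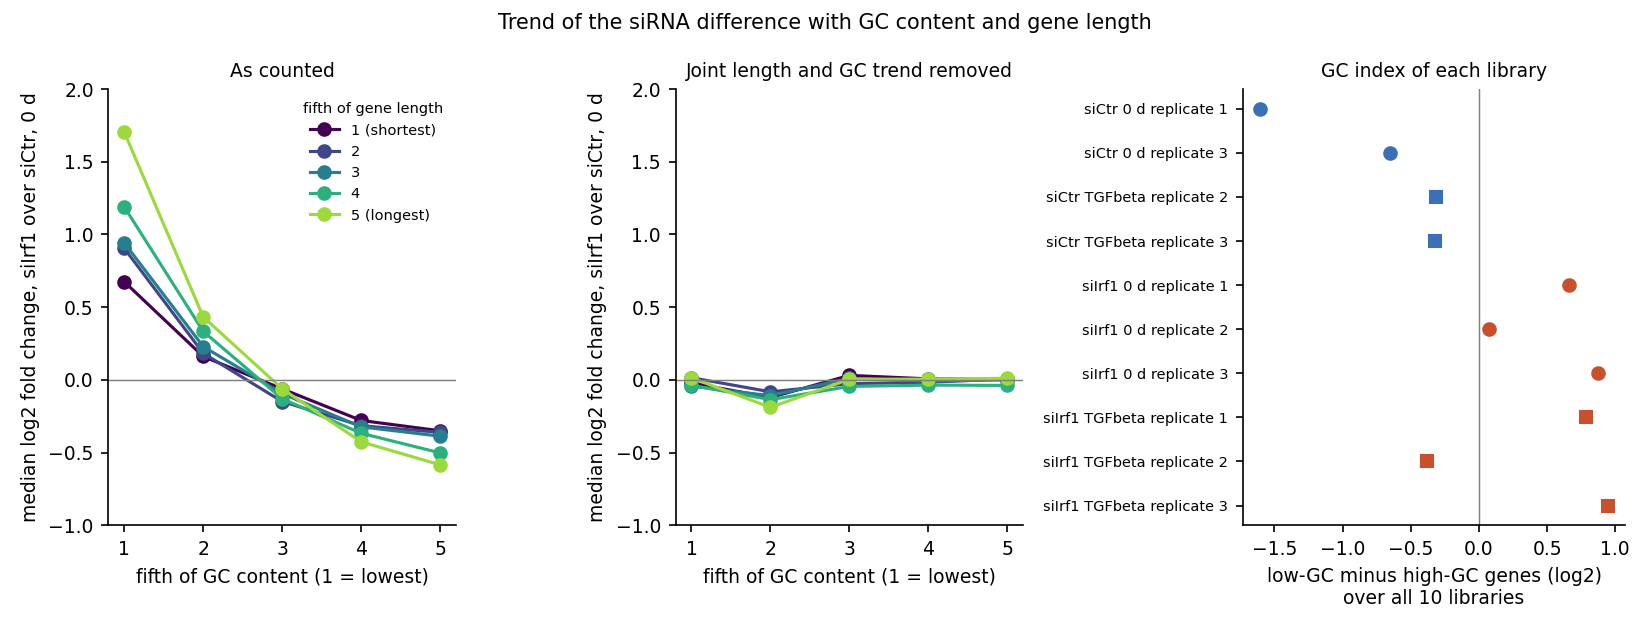
Median log2 fold change (siIrf1 over siCtr, 0 d) by quintile of GC content, with 1 line per quintile of gene length, as counted (left) and after removal of the joint length and GC trend (middle), and the GC index of each of the 10 libraries (right; blue siCtr, red siIrf1, circles 0 d, squares TGFbeta). As counted the medians span -0.58 to 1.71 and after removal -0.19 to 0.03. The index at the right is relative to the mean of all 10 libraries, unlike that in the text, which uses the 5 libraries of 0 d. The siCtr 0 d replicate 1 library has the lowest index, -1.60.

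The trend was present in single libraries. A GC index, the median log2 level of the lowest-GC quintile of genes minus that of the highest-GC quintile, each relative to the mean of the 5 libraries, was -1.47 and -0.49 in siCtr replicates 1 and 3. It was 0.79, 0.21 and 1.00 in siIrf1 replicates 1, 2 and 3. The groups did not overlap, with a difference of 1.65 (exact permutation test, two-sided p = 0.1, n = 2 against 3, the smallest p that the 10 arrangements allow). The siCtr replicate 1 library stood apart most, and the number of genes called fell from 4175 to 1700 without it. It was 2583 without siIrf1 replicate 1 and 2245 without siIrf1 replicate 3. With the siRNA and the GC index moving together in all 5 libraries, an effect of Irf1 and a difference in library composition cannot be told apart for a gene whose change follows the trend.

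The comparison was therefore repeated with the trend removed, by fitting each library's deviation as smooth functions of gene length and GC content and entering the fit as an offset. With the trend removed, 2098 genes (16%) were called higher and 2656 (20.2%) lower, and 47 genes were called in opposite directions with and without the trend. This removal assumes that no part of the trend is due to the siRNA, and it leaves a residue in the extreme bins, from -0.44 to 0.39 in median log2 fold change. A second removal with product terms of length and GC, added after the data had been seen and called the joint removal below, left medians from -0.19 to 0.03. A change is called stable below where the gene was called in the same direction as counted, with the trend removed, and without each of the 5 libraries in turn. The fits without a library that enter this rule were as counted. Counts over gene lists are given both ways, while many single genes are given as counted together with whether the change was stable. There were 644 stable rises and 719 stable falls, 32.6% of the 4175 genes called, and 1269 of these 1363 were also called alike after the joint removal. The stable genes still lean with base composition, since they had to be called as counted: the median GC content was 42.2% for stable rises and 54.4% for stable falls.

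Genes of MHC class I antigen presentation were lower with siIrf1. Of 20 tested members, 14 were called lower and none higher as counted, against 15.5% of all genes tested called lower, and the median log2 fold change was -0.95 against -0.03 for all genes. With the trend removed 12 were lower and none higher, against 20.2% and 16% of all genes, and the median was -0.69. There were 9 falls as counted and 12 with the trend removed when siCtr replicate 1 was left out. The members were chosen with earlier results of these data known, so that the direction of the list is not independent evidence. The promoter windows of 2 of its genes and of the antiviral gene Oasl2, taken from RefSeq (GRCm38.p6, 250 bases before to 50 bases after the transcription start, in the direction of transcription), are shown because a core of the interferon-stimulated response element, GAAANNGAAA, was searched in them on both strands. Capitals mark a match.
B2m, chr2:122147437-122147736, plus strand: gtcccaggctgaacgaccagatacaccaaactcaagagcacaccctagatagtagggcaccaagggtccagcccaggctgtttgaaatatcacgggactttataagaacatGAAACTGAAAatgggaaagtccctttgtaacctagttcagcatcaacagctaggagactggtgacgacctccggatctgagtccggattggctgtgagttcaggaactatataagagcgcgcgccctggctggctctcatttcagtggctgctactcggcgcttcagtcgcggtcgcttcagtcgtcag
Psmb9, chr17:34187281-34187580, minus strand: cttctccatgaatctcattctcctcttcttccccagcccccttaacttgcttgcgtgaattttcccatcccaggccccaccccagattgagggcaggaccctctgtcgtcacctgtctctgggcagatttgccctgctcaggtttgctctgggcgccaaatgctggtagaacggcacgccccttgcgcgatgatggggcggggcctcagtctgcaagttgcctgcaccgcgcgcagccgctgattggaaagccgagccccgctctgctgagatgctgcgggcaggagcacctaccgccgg
Oasl2, chr5:114896684-114896983, plus strand: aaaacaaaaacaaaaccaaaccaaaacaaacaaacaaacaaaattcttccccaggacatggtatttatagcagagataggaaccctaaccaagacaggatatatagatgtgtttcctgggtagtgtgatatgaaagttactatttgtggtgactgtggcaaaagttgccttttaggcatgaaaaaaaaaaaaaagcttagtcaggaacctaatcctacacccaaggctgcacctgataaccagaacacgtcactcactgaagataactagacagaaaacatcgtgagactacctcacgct

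The B2m window held 1 match, which begins 139 bases before the start, and the Psmb9 and Oasl2 windows held none of these letters. The Psmb9 window overlaps most of the Tap1 window (chr17:34187306-34187605, plus strand), since both genes start from this stretch in opposite directions. Of 10338 tested genes with a window in the table, 382 held the motif (3.7%). In the antigen presentation list 5 of 17 did, 2 of the 11 called lower and 3 of the 6 not called lower. Among type I interferon-stimulated genes 16 of 35 held it, 7 of the 20 called lower (35%) and 9 of the 15 not called lower (60%). Over all genes 4.44% of those called lower and 4% of those called higher held it, and 5.91% of stable falls and 5.16% of stable rises. These are counts of letters in a 300-base window and do not mark bound sites.

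Tapbp, encoding tapasin, was at 263 and 235 CPM with siCtr and at 52.8, 76.9 and 51.1 CPM with siIrf1. It was lower in each siIrf1 library, with a log2 fold change of -2.04 (SE 0.19, adjusted p = 2.35e-04), and fell by 1.59 with the trend removed (adjusted p = 6.58e-05). Tap2, 1 of the 2 chains of the peptide transporter, was at 4.32 and 5.79 CPM against 0.565, 0.882 and 0.659 CPM, again without overlap. It fell by 2.83 (adjusted p = 2.75e-04) and by 2.40 with the trend removed. Tapbpl, encoding a tapasin-related peptide editor, went from 33.7 and 28.2 CPM to 10.3, 9.57 and 7.97 CPM and fell by 1.74 (adjusted p = 6.84e-04), and by 1.39 with the trend removed. All of these falls were stable.

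Psmb9, a catalytic subunit of the immunoproteasome, rested on few counts, 17 and 27 with siCtr against 1, 2 and 4 with siIrf1. Its log2 fold change was -3.54 (SE 0.5, adjusted p = 0.00123) and -3.16 with the trend removed. Psmb10, another immunoproteasome subunit, was at 33.4 and 38.6 CPM against 10.5, 14.5 and 8.71 CPM, and fell by 1.68 (adjusted p = 0.00933). Psmb8, the remaining inducible catalytic subunit, had at most 1 count in any 0 d library and was not tested. The class I heavy chain gene H2-K1 went from 49.6 and 46.7 CPM to 17.8, 23.1 and 20.4 CPM and fell by 1.24 (adjusted p = 0.00239), while H2-D1 fell by 0.84 as counted and was not called with the trend removed (-0.40, adjusted p = 0.0521). Class I heavy chain genes are near-identical copies of each other, so that counts may be split between them.

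Tap1 and B2m show how far single genes depended on the trend. Tap1 was at 2.20 and 2.12 CPM with siCtr and at 1.00, 1.09 and 1.29 CPM with siIrf1, without overlap. It fell by 0.93 as counted (adjusted p = 0.04), was not called when any 1 of the 5 libraries was left out, and with the trend removed its log2 fold change was -0.50 (adjusted p = 0.164). B2m, a short gene of 41.2% GC, was at 29.9 and 67.9 CPM with siCtr and at 44.3, 44.4 and 51.1 CPM with siIrf1, and all siIrf1 values lay between those of the 2 control libraries. It was not called as counted (-0.07, adjusted p = 0.886), and it fell by 1.20 with the trend removed (adjusted p = 0.00163) and by 0.73 after the joint removal (adjusted p = 0.0373).

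**Figure D2:**
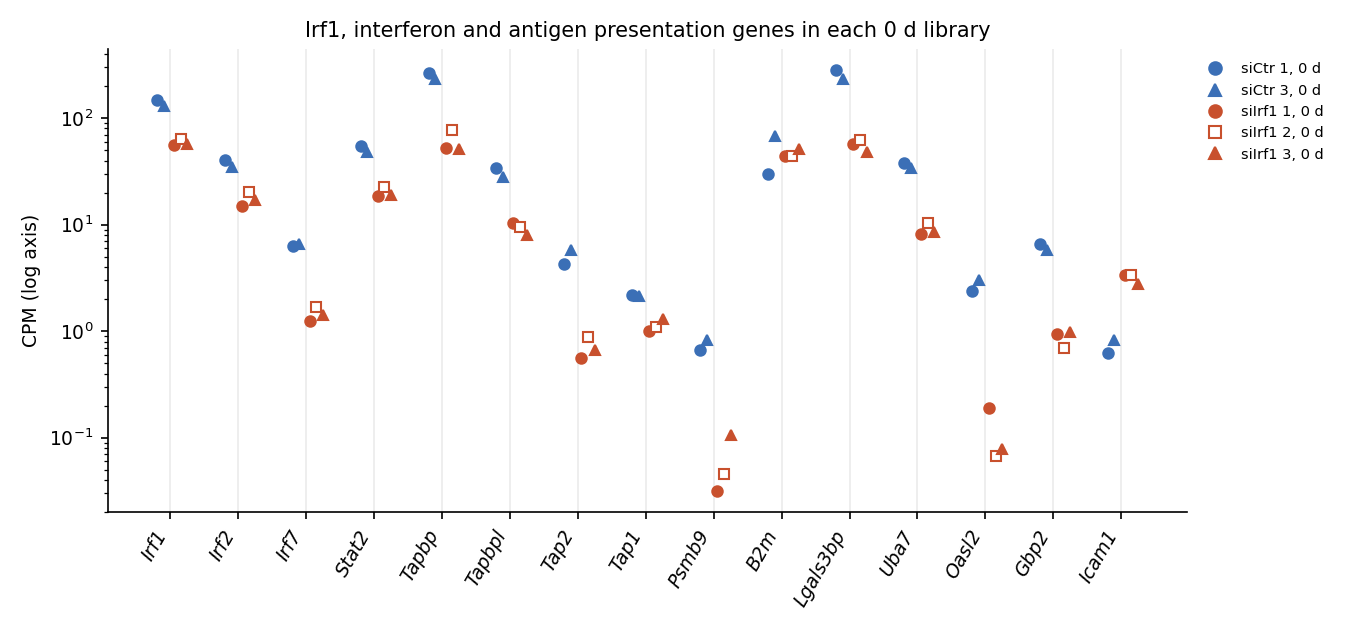
Level of Irf1 and of interferon and antigen presentation genes in each 0 d library, in CPM on a log axis (blue siCtr, red siIrf1; circle, square and triangle are replicates 1, 2 and 3). The 3 siIrf1 values lie below both siCtr values for every gene shown except B2m, where the siCtr values of 29.9 and 67.9 CPM enclose them, and Icam1, where they lie above.

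Type I interferon-stimulated genes were mostly lower, with a minority that went up. Of 42 tested, 23 were called lower and 5 higher, with a median of -0.66, and 22 were lower and 5 higher with the trend removed. Over all genes 15.5% were called lower and 16.3% higher as counted, and 20.2% and 16% with the trend removed. Without siCtr replicate 1, 15 were lower and 2 higher as counted, and 19 and 4 with the trend removed. Oasl2, an antiviral protein related to the oligoadenylate synthetases, was at 2.40 and 3.03 CPM with siCtr and at 0.188, 0.0679 and 0.0791 CPM with siIrf1, which are 6, 3 and 3 counts. It fell by 4.63 (SE 0.42, adjusted p = 1.89e-04) and by 4.51 with the trend removed. Lgals3bp, a secreted glycoprotein, went from 281 and 232 CPM to 57.7, 61.9 and 48.4 CPM and fell by 2.20 (adjusted p = 1.37e-04), and by 1.76 with the trend removed. Uba7, the enzyme that activates the ubiquitin-like protein Isg15, went from 37.6 and 34.3 CPM to 8.22, 10.4 and 8.60 CPM and fell by 1.98 (adjusted p = 2.45e-04), and by 1.60 with the trend removed. Isg15 itself fell by 2.39, and Oas3, Oasl1, Parp12 and Ube2l6 were stable falls of 2.19, 1.47, 1.39 and 1.12.

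The interferon-stimulated genes that rose included Ifit2 and Samd9l, both stable. Ifit2, which restrains translation of viral RNA, was at 4.12 and 14.1 CPM with siCtr and at 36.7, 47.6 and 49.3 CPM with siIrf1. It rose by 2.28 as counted (adjusted p = 0.00946) and by 1.28 with the trend removed (adjusted p = 0.00724). The control libraries also differed from each other. Samd9l, an inhibitor of translation in antiviral defence, went from 2.43 and 1.36 CPM to 25, 28.5 and 39.0 CPM, a rise of 4.03 as counted and 2.22 with the trend removed. Epsti1 (0 and 1 count with siCtr against 38 in the 3 siIrf1 libraries) and Ifit3 were called higher both ways, while Herc6 was called as counted (1.57) but not with the trend removed (-0.01). Ifit3 and Ifit3b are close copies, and their counts are uncertain. The 5 called higher had a median GC content of 42% and the 23 called lower one of 52%.

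Targets of interferon gamma were called lower in 5 of 18 cases and higher in 3 as counted, against 15.5% and 16.3% of all genes. With the trend removed 7 were lower and 3 higher, against 20.2% and 16%. The share called higher was thus near that of all genes both ways. Gbp2, a guanylate-binding protein that acts on intracellular microbes, was at 6.56 and 5.82 CPM with siCtr and at 0.942, 0.701 and 0.976 CPM with siIrf1. Its log2 fold change was -2.83 (SE 0.25, adjusted p = 1.74e-04), and -3.04 with the trend removed. Its relative Gbp7 rose instead, from 0.0785 and 0.182 CPM to 3.30, 5.52 and 5.36 CPM (5.09 as counted, adjusted p = 0.00141, and 3.89 with the trend removed). Icam1, a leukocyte adhesion molecule with a GC content of 55.4%, rose against the direction of the trend, from 0.628 and 0.819 CPM to 3.36, 3.37 and 2.77 CPM. Its log2 rise was 2.12 as counted (adjusted p = 8.83e-04) and 2.52 with the trend removed.

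Among the interferon regulatory factors themselves, Irf7, the main amplifier of type I interferon induction, was at 6.36 and 6.52 CPM with siCtr and at 1.26, 1.70 and 1.42 CPM with siIrf1. It fell by 2.13 (SE 0.26, adjusted p = 6.64e-04) and by 1.73 with the trend removed, a stable change. Irf2, often an antagonist of Irf1 at shared sites, went from 40.1 and 34.6 CPM to 15, 20.4 and 17.0 CPM and fell by 1.09 (adjusted p = 0.0107), and by 1.36 with the trend removed. Irf8 rose from 2.63 and 1.64 CPM to 5.15, 6.58 and 4.88 CPM (1.38, adjusted p = 0.0189, and 1.65 with the trend removed). Neither was stable: the call of Irf2 was lost without siCtr replicate 1 (-0.99, adjusted p = 0.067) and that of Irf8 without siCtr replicate 3 (1.14, adjusted p = 0.0832). Irf3 (-0.15, adjusted p = 0.65) and Irf9 (-0.42, adjusted p = 0.129) were not called. Irf4 and Irf5 had at most 7 counts in a 0 d library and were not tested.

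Of 18 interferon receptor, JAK, STAT and SOCS genes, 4 were called lower and none higher as counted, against 15.5% of all genes called lower, and 5 and none with the trend removed, against 20.2%. There were 2 falls without siCtr replicate 1 as counted and 4 with the trend removed. Stat2, a subunit of the complex that drives type I interferon-stimulated genes, was at 55.3 and 47.8 CPM with siCtr and at 18.6, 22.4 and 19.0 CPM with siIrf1, and its fall of 1.36 was stable (adjusted p = 0.00126). The interferon gamma receptor chain Ifngr2 fell by 0.93 (adjusted p = 0.00489), and Stat3 by 0.73 (adjusted p = 0.00496). Both calls were lost without siCtr replicate 1 (-0.59, adjusted p = 0.0606, for Ifngr2 and -0.60, adjusted p = 0.0647, for Stat3).

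Sensors of foreign RNA and DNA were not lower as a group: of 15 tested, 4 were called higher and 1 lower as counted, and 3 and 1 with the trend removed. The shares over all genes were 16.3% higher and 15.5% lower as counted, and 16% and 20.2% with the trend removed. Sting1, the adaptor of cytosolic DNA sensing, went from 1.88 and 1.85 CPM to 4.55, 4.41 and 5.20 CPM, a stable rise of 1.34 (adjusted p = 0.00222). Ifi204, a DNA sensor of 40.6% GC, rose by 1.51 as counted and was not called with the trend removed (0.19, adjusted p = 0.614).

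NF-kappaB proteins, inhibitors and target cytokines included 8 of 21 genes called higher and 3 called lower as counted, against 16.3% and 15.5% of all genes. With the trend removed 9 were higher and 3 lower, against 16% and 20.2%. Without siCtr replicate 1, 3 were higher and 2 lower as counted, and 7 and 2 with the trend removed. Ccl20, a chemokine that draws dendritic and T cells to epithelia, was at 24.9 and 53.8 CPM with siCtr and at 218, 171 and 218 CPM with siIrf1. Its rise was 2.36 as counted (adjusted p = 0.00183) and 0.90 with the trend removed (adjusted p = 0.033). Cxcl15, a neutrophil-attracting chemokine, rose from 0.118 and 0.303 CPM to 2.83, 3.32 and 4.88 CPM (4.05, and 2.93 with the trend removed). Lif, a cytokine of the IL-6 family, rose by 0.75 (adjusted p = 0.00731), whereas Cxcl1 was a stable fall, from 35.3 and 36.8 CPM to 22.3, 15.9 and 16.2 CPM (-0.99, adjusted p = 0.0106).

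Targets of p53, the tumour suppressor that halts the cell cycle upon stress, were called higher in 10 of 22 cases and lower in 1, with a median of 0.54, and in 9 and 1 with the trend removed, with a median of 0.61. Without siCtr replicate 1, 7 were higher and none lower as counted, and 8 and none with the trend removed. The share called higher over all genes was 16.3% as counted and 16% with the trend removed. Cdkn1a, the cell cycle inhibitor p21, has a GC content of 54.4% and so rose against the trend: it was at 255 and 185 CPM with siCtr and at 484, 527 and 491 CPM with siIrf1. The groups did not overlap, and the rise was 1.19 as counted (SE 0.18, adjusted p = 0.00149) and 1.58 with the trend removed (adjusted p = 4.67e-05). Btg2, an antiproliferative gene, went from 67.6 and 50.9 CPM to 154, 173 and 161 CPM, a rise of 1.46 (adjusted p = 5.89e-04). Ccng1, cyclin G1, went from 50.7 and 92.5 CPM to 471, 434 and 645 CPM, a rise of 2.85 as counted and 1.57 with the trend removed. Plk2 rose by 1.16 (adjusted p = 0.00136), Eda2r by 2.85 and Trp53inp1 by 3.06, and these 6 rises were the stable ones of the list.

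Of 22 caspase, gasdermin and BCL2 family genes, 4 were called higher and 2 lower as counted, near the shares of 16.3% and 15.5% over all genes. After removal of the trend 7 were higher and 3 lower, against 16% and 20.2%. When siCtr replicate 1 was left out, 2 were higher and 1 lower as counted, and 6 and 3 with the trend removed. Casp8, the initiator caspase of death receptors, was a stable rise of 1.20. Bmf, a BH3-only killer protein, was a stable fall of 1.11, and Gsdmd, the pore-forming gasdermin D, fell by 0.94 (adjusted p = 0.00628), a call lost without siCtr replicate 1 (-0.73, adjusted p = 0.0679). Casp1 was not called as counted (0.21, adjusted p = 0.678) and was called lower with the trend removed (-0.97, adjusted p = 0.00994), but not after the joint removal (-0.60, adjusted p = 0.0924).

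Cell cycle genes were called higher more often than lower, while most were not called. Of 38 tested, 9 were called higher and 2 lower as counted, against 16.3% and 15.5% of all genes. With the trend removed 11 were higher and 4 lower, against 16% and 20.2%, and after the joint removal 9 and 6. The medians were -0.02 as counted and 0.11 with the trend removed. Of the calls, 6 rises and no falls were stable. Mki67, the proliferation marker Ki-67, was at 15.7 and 21.5 CPM with siCtr and at 231, 275 and 248 CPM with siIrf1. It rose by 3.76 as counted (SE 0.51, adjusted p = 0.00116) and by 3.22 with the trend removed. The mitotic genes Cenpe, Cenpf, Bub1, Kif11 and Ttk rose by 4.21, 3.92, 2.74, 2.54 and 2.42 as counted and by 2.96, 2.71, 1.41, 1.49 and 1.51 with the trend removed. The 9 genes called higher had a median length of 4819 bases and GC content of 43%, against 2860 bases and 49.2% for the 27 not called. Cyclin D1 (Ccnd1, 0.26), Ccnb1 (0.37), Cdk1 (0.21) and the replication helicase subunits Mcm2 to Mcm7 (-0.35 to -0.07) were not called as counted. In bulk RNA, more cells in mitosis and more of these RNAs per cell cannot be told apart.

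Metabolic genes were lower in several groups. For all genes the shares called lower and higher were 15.5% and 16.3% as counted, and 20.2% and 16% with the trend removed. In cholesterol biosynthesis 14 of 23 genes were called lower and 2 higher as counted, and 13 and none with the trend removed. Only 4 falls as counted, and 9 with the trend removed, were called without siCtr replicate 1. Fdps, the farnesyl diphosphate synthase of the pathway, fell by 1.03 (adjusted p = 0.00283) and by 0.80 with the trend removed. Of 23 genes of glycolysis and hypoxia, 13 were lower and none higher, and 11 were lower with the trend removed. Leaving out siCtr replicate 1 left 6 falls both ways. Slc2a1, the basal glucose transporter, went from 289 and 276 CPM to 116, 137 and 119 CPM and fell by 1.18, Ldha by 0.87 and Hk1 by 0.83. All 3 falls were stable, with log2 fold changes of -0.82, -0.61 and -0.49 with the trend removed. Gapdh, which has many near-identical pseudogene copies, was listed at 1.71 to 3.93 CPM and is uncertain.

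Stress response genes also leaned lower. Over all genes 15.5% were called lower and 16.3% higher as counted, and 20.2% and 16% with the trend removed. Of 21 genes of the unfolded protein and integrated stress responses, 8 were called lower and 2 higher as counted, and 9 and none with the trend removed. Chac1, a glutathione-degrading enzyme induced by Atf4, was at 80.8 and 100 CPM with siCtr and at 19.3, 21.9 and 18.6 CPM with siIrf1. It fell by 2.18 (adjusted p = 4.79e-04), and Trib3, Herpud1, Xbp1 and Atf4 were further stable falls of 1.51, 1.28, 1.07 and 0.93. In the Nrf2 and oxidative defence list 9 of 20 were lower and none higher as counted and 10 with the trend removed, but 2 and 4 without siCtr replicate 1. Fth1, the ferritin heavy chain, was at 3415 and 2281 CPM with siCtr and at 1221, 1092 and 1065 CPM with siIrf1, and fell by 1.34 (adjusted p = 9.08e-04), and by 1.14 with the trend removed. Gclm, a subunit of the enzyme that starts glutathione synthesis, fell by 0.97 as counted and by 2.15 with the trend removed.

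**Figure D3:**
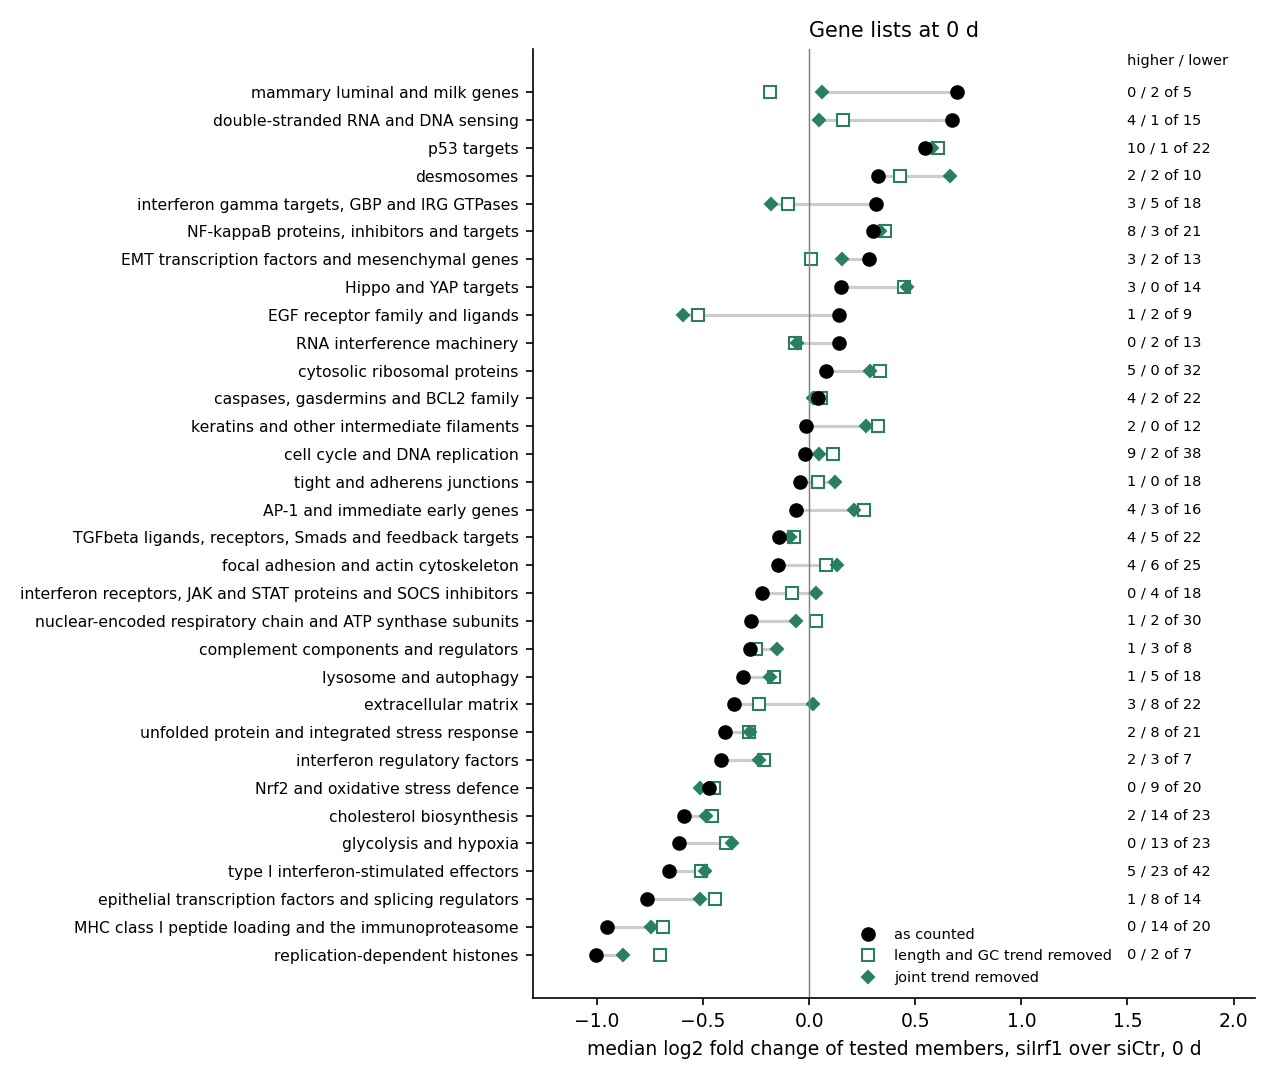
Median log2 fold change of the tested members of each gene list at 0 d, as counted (black circles), with the length and GC trend removed (open squares) and after the joint removal (green diamonds), with the counts of members called higher and lower as counted at the right. MHC class I presentation has a median of -0.95, -0.69 and -0.74 in turn, while RNA and DNA sensing moves from 0.67 to 0.16 and EGF receptor family genes from 0.14 to -0.53.

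Epithelial identity genes gave a mixed picture. Cdh1, encoding E-cadherin, was at 694 and 586 CPM with siCtr and at 621, 608 and 581 CPM with siIrf1, and the groups overlapped (-0.09, adjusted p = 0.678, and 0.03 with the trend removed). Of 18 tight and adherens junction genes, 1 was called higher and none lower as counted, against 16.3% and 15.5% of all genes. With the trend removed 4 were higher and 1 lower, against 16% and 20.2%. Tjp1 (ZO-1) was at 68.4 and 249 CPM in the 2 control libraries, which enclosed all siIrf1 values (173, 225 and 211 CPM). Ocln (occludin) was called only with the trend removed, with a log2 fold change of 0.34 as counted and -0.81 with the trend removed (adjusted p = 0.0185). Krt8 and Krt18, the simple epithelial keratins, were not called as counted (-0.41 and -0.06), and Krt18 was called higher with the trend removed (0.41, adjusted p = 0.0378) but not after the joint removal. Krt20, a keratin of differentiated epithelium, rose by 0.65 (adjusted p = 0.00994), a call lost without siCtr replicate 1 (adjusted p = 0.125).

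Transcription and splicing regulators of the epithelial state were lower in 8 of 14 cases and higher in 1 as counted, against 15.5% and 16.3% of all genes. With the trend removed 7 were lower, against 20.2%. Without siCtr replicate 1 there were 2 falls as counted and 5 with the trend removed. Tfap2a was at 15.7 and 13.8 CPM with siCtr and at 3.08, 5.52 and 2.48 CPM with siIrf1, and fell by 1.99 (adjusted p = 0.00511). Grhl1, a grainyhead factor of epithelial differentiation, was at 8.72 and 7.70 CPM against 3.36, 2.33 and 3.14 CPM and fell by 1.48 (adjusted p = 0.00171). Both falls were stable, while the fall of the epithelial splicing regulator Esrp2 by 0.90 (adjusted p = 0.00736) was called with the trend removed (-0.46) but not stable.

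EMT transcription factors and mesenchymal genes showed no common direction, with 3 of 13 higher and 2 lower as counted. These were near the shares of 16.3% and 15.5% over all genes. With the trend removed 3 were higher and 4 lower, against 16% and 20.2%. Leaving out siCtr replicate 1, none was higher and 2 were lower as counted, and 2 were higher and 3 lower with the trend removed. Vim (vimentin) was at 1212 and 989 CPM against 1389, 1346 and 1269.7 CPM and was not called (0.28, adjusted p = 0.24). Cdh2 (N-cadherin, 0.22), Fn1 (fibronectin, -0.16), Zeb1 (0.28) and Snai1 (0.81) were not called as counted, and of these Snai1 was called higher with the trend removed (1.32, adjusted p = 0.017). Zeb2 was called higher as counted, from 0.157 and 1.09 CPM to 2.01, 3.19 and 3.03 CPM (2.07, adjusted p = 0.0277), and not with the trend removed (0.65, adjusted p = 0.202). Snai2 had 0 counts in each 0 d library. S100a4, a calcium-binding protein of motile cells, went from 344 and 249 CPM to 98.4, 65.7 and 80.2 CPM, and Foxf2 from 23.8 and 21.4 CPM to 9.29, 10.9 and 9.39 CPM. Their falls of 1.87 (adjusted p = 3.73e-04) and 1.19 (adjusted p = 8.24e-04) were stable.

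Matrix genes were lower more often than higher, 8 of 22 against 3 as counted and 8 against 4 with the trend removed. After the joint removal 5 were lower and 6 higher. The shares over all genes were 15.5% lower and 16.3% higher as counted, and 20.2% and 16% with the trend removed. Lamc1, the laminin gamma-1 chain of basement membranes, was at 704 and 651 CPM with siCtr and at 177, 206 and 159 CPM with siIrf1. It fell by 1.90 (adjusted p = 3.02e-04) and by 1.86 with the trend removed. Fbln2 (fibulin-2) went from 46.8 and 41.0 CPM to 7.94, 7.08 and 5.30 CPM, a fall of 2.70 (adjusted p = 1.16e-04). Nid1 (nidogen-1), which links laminin to collagen IV, went the other way, from 0.510 and 0.849 CPM to 6.50, 6.04 and 5.12 CPM (3.09, adjusted p = 4.18e-04), and all of these were stable.

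In the TGFbeta pathway 5 of 22 genes were called lower and 4 higher as counted in these cells without added TGFbeta, against 15.5% and 16.3% of all genes. After removal of the trend 7 were lower and 3 higher, against 20.2% and 16%. In the fit without siCtr replicate 1, 5 were lower and none higher as counted, and 5 and 2 with the trend removed. The falls as counted were all stable and included the receptor Tgfbr2 (578 and 506 CPM against 305, 323 and 273 CPM, a fall of 0.85), the ligand Tgfb1 (1.52), the latency protein Ltbp1 (1.58) and Pmepa1 (1.06). The rises of Tgfb3 (1.54) and Smad7 (0.60) were called both ways, and those of Tgfbr1 and Skil as counted and not with the trend removed. Of 14 Hippo and YAP target genes, 3 were called higher and none lower as counted, against 16.3% and 15.5% of all genes. With the trend removed 7 were higher and none lower, against 16% and 20.2%. Ankrd1 was at 85 and 181 CPM with siCtr and at 414, 408 and 417 CPM with siIrf1, a stable rise of 1.63 (adjusted p = 0.00409).

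AP-1 genes split in direction. Fosl1 (Fra-1) was at 28.9 and 27.9 CPM with siCtr and at 4.99, 5.97 and 3.56 CPM with siIrf1 and fell by 2.55 (SE 0.25, adjusted p = 3.02e-04). Fos went from 1.57 and 1.21 CPM to 5.56, 5.04 and 4.38 CPM and rose by 1.85 (adjusted p = 0.00136). Both changes were stable, with trend-removed values of -2.07 and 2.13. In focal adhesion and actin genes 6 of 25 were lower and 4 higher as counted, against 15.5% and 16.3% of all genes. With the trend removed 5 were lower and 4 higher, against 20.2% and 16%. The share called higher was near that of all genes both ways, and the share called lower was so with the trend removed. The counts without siCtr replicate 1 were 3 lower and 2 higher, and 2 and 3 with the trend removed. There were stable changes in Itgb3 (integrin beta-3, -1.02) and Tpm1 (tropomyosin 1, 0.97).

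Of 32 cytosolic ribosomal protein genes, 5 were called higher as counted, near the 16.3% of all genes, and none of these rises was stable. With the trend removed 14 were higher and 1 lower, against 16% and 20.2% of all genes. After the joint removal 7 were higher and none lower. Fewer rises were called both ways without siCtr replicate 1. The many processed pseudogenes of ribosomal protein genes make these counts uncertain. Among 30 respiratory chain and ATP synthase subunits, 1 was higher and 2 lower as counted, and 3 and 4 with the trend removed, shares below those of all genes both ways. Of 13 genes of the RNA interference machinery, 2 were lower as counted, about the share of all genes. With the trend removed 2 were lower and 1 higher, against 20.2% and 16% of all genes. Ago2, the slicer that siRNAs load into, was 1 of the falls as counted (-0.71, adjusted p = 0.0426) and was not called when any 1 of the 5 libraries was left out. It was called lower with the trend removed (-0.90, adjusted p = 0.00203) and after the joint removal (-0.81, adjusted p = 0.00253). Of 18 lysosome and autophagy genes 5 were lower and 1 higher as counted and 4 and none with the trend removed, against 15.5% and 20.2% of all genes called lower. The fits without siCtr replicate 1, as counted and with the trend removed, called 1 fall each. Npc1, a cholesterol exporter of the lysosome, was a stable fall (-1.25). Complement gene C3 went from 383 and 272 CPM to 95.3, 86.2 and 76.6 CPM (-1.93, adjusted p = 2.35e-04, and -1.75 with the trend removed), and the luminal mucin Muc1 from 492 and 404 CPM to 101, 117 and 88.7 CPM (-2.13, adjusted p = 1.51e-04, and -1.76 with the trend removed). Of 9 EGF receptor family genes Erbb3 and Erbb2 were lower and Btc was higher as counted, near the shares of all genes. After the removal Erbb2 (-0.26, adjusted p = 0.083) and Btc (0.57, adjusted p = 0.0766) were not called. In that fit 3 genes of the list were lower and 1 higher, against 20.2% and 16% of all genes. Neither fall was called as counted without siCtr replicate 1 (adjusted p = 0.0544 for Erbb3 and 0.11 for Erbb2).

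Of the epithelial markers, Krt8, Krt18, Krt19, Krt7, Cdh1, Ocln and Tjp1 were present, with none called as counted, while Epcam, Cldn3 and Cldn7 had 0 counts in all 5 libraries. Lum, Thy1, Cd3e, Adgre1, Kdr, Emcn, Adipoq, Plin1 and Lpl also had 0 counts in all 5. The fibroblast gene Dcn had 0 counts with siCtr and 13, 17 and 22 with siIrf1, at most 0.58 CPM, which makes it at least 8.89-fold higher against a floor of 3 counts over the group. The leukocyte gene Ptprc had 2 counts with siCtr and 91 with siIrf1, a ratio of 23.3 (95% interval 6.28 to 196, counting error only), at most 1.02 CPM. Both rises were stable, and that of Ptprc was not called after the joint removal (adjusted p = 0.0607). Neither rise was called when the trend was removed and siCtr replicate 1 was left out as well. Csf1r was at 25 to 43.7 CPM, was not called as counted (0.43, adjusted p = 0.137) and was called higher with the trend removed (0.75, adjusted p = 0.0218). Of the 3 immune markers tested, 1 was therefore higher as counted and 2 with the trend removed, and none was lower. Among the 4 fibroblast markers tested Dcn alone was called, as counted and with the trend removed. Col1a1 had 10 and 12 counts with siCtr and 7, 18 and 6 with siIrf1, and Pdgfra had 5 and 2 against 8, 1 and 7. No call was made, as counted or with the trend removed, for the 3 basal and myoepithelial markers tested. Whether cells with these markers play a part in other changes was not tested.

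Over all genes, inside the lists or not, the 10 largest rises and falls among genes with at least 5 CPM on average in the higher group and no overlap between groups were taken. Of these 20, 9 rises and 10 falls were stable. Cfi, complement factor I, which cleaves C3b (chromosome 3, 129836727 to 129875332), had the largest rise, from 0.0393 and 0.152 CPM (1 and 5 counts) to 5.02, 7.33 and 10.3 CPM. Its log2 fold change was 6.18 (SE 0.53, adjusted p = 1.73e-04), 6.04 with the trend removed and 6.02 after the joint removal. Rgn, the calcium-binding protein regucalcin, rose from 0.196 and 0.364 CPM to 7.66, 7.26 and 11.4 CPM (4.92, and 3.82 with the trend removed). Ms4a2, the beta chain of the high-affinity IgE receptor and otherwise a mast cell gene, went from 5.38 and 9.67 CPM to 149, 161 and 229 CPM (4.57, adjusted p = 1.43e-04, and 2.89 with the trend removed). It was the most abundant of these 10 rises with siIrf1.

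The other rises of this group, Fam199x, Atrx, Nbeal1, Phip, Thoc2, Zfp292 and Cep290, and Kif20b, the next stable one, share long transcripts, from 5563 to 12108 bases, and a GC content from 37.2% to 40.5%. The chromatin remodeller Atrx was at 2.04 and 1.73 CPM with siCtr and at 43.1, 42.8 and 51.6 CPM with siIrf1. Its rise of 4.61 as counted was 2.80 with the trend removed and 2.29 after the joint removal. With the trend removed the log2 fold change of these 8 genes was 2.46 to 2.80, and Cep290 was no longer called (adjusted p = 0.0557).

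The largest falls did not share that composition. Their GC content ran from 48.2% (Apon) to 59.0% (Setd1b), against a median of 50.1% for genes not called. A fall in a gene of high GC content follows the direction of the trend. Muc5b, a gel-forming secreted mucin (chromosome 7, 141839059 to 141873089), was at 55.6 and 46.5 CPM with siCtr and at 1.26, 4.50 and 1.21 CPM with siIrf1. It fell by 4.44 (SE 0.95, adjusted p = 0.0078) and by 4.49 with the trend removed. Gata5, a zinc finger transcription factor, went from 15.7 and 8.79 CPM to 0.753, 0.724 and 0.607 CPM (-4.13, and -3.68 with the trend removed), and Agt, angiotensinogen, from 9.23 and 10.7 CPM to 0.659, 0.679 and 0.607 CPM (-3.94, and -3.51). Orm1, the acute phase protein orosomucoid, fell by 3.82, the integrin subunit Itgb7 by 3.64, and the cornified envelope gene Sprr1b, from 155 and 103 CPM to 11.4, 14.5 and 5.46 CPM, by 3.63. Clca3b (-3.09), the histone methyltransferase Setd1b (-2.93), the sialoglycoprotein Spn (-2.88) and the apolipoprotein Apon (-2.85) completed the group. The rule of choice required each of the 10 to be lower in all 3 siIrf1 libraries.

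**Figure D4:**
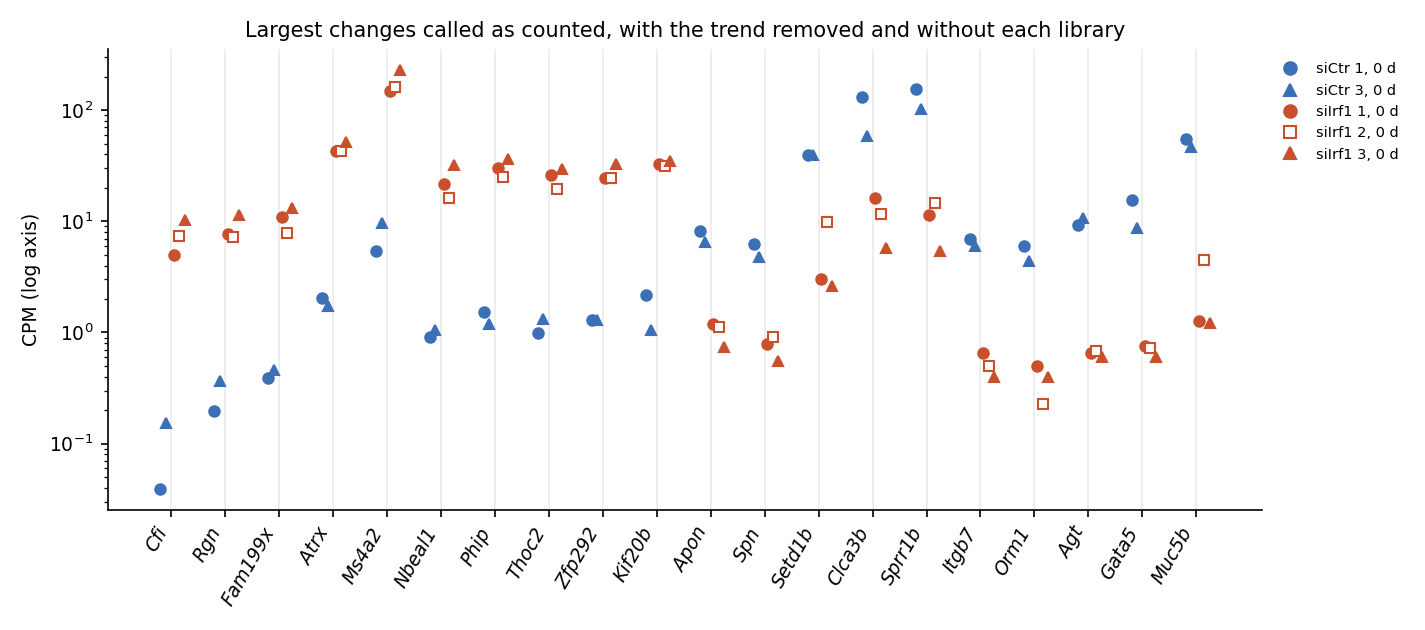
Level in each 0 d library, in CPM on a log axis, of the 10 largest stable rises (left) and falls (right), with symbols for siCtr (blue) and siIrf1 (red) replicates 1 (circle), 2 (square) and 3 (triangle). Ms4a2 reaches 229 CPM with siIrf1, and Muc5b falls from 46.5 CPM or more to 4.50 CPM or less.

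The same siRNAs in cells given TGFbeta, 3 siIrf1 and 2 siCtr libraries, share no library with the 0 d comparison. Both comparisons came from 1 fit of all 10 libraries, which estimates the spread of each gene jointly. The 2 sets of calls are therefore not fully independent. With TGFbeta 1277 genes (9.72%) were called higher and 1088 (8.28%) lower. Of the 2136 genes called higher at 0 d, 726 were called higher with TGFbeta too, which is 34% of the 0 d list and 56.9% of the TGFbeta list, and 21 were called lower. Of the 2039 called lower at 0 d, 572 were lower with TGFbeta, 28.1% of the 0 d list and 52.6% of the TGFbeta list, and 84 were higher. The GC trend was also present there, with a correlation of log2 fold change and GC content of -0.327, so shared calls include genes that follow it. Among stable genes 406 of 644 rises (63%) and 311 of 719 falls (43.3%) were called alike with TGFbeta. The TGFbeta replicate 2 libraries had nearly equal GC indices, here relative to the mean of all 10 libraries, -0.31 for siCtr and -0.38 for siIrf1. In the log2 ratio between these 2 libraries, given without a test, 574 of the 644 stable rises were above 0 (89.1%, against 52.1% of all genes) and 594 of the 719 stable falls below it (82.6%, against 47.8%), with medians of 0.86 and -0.57. The ratio was -1.20 for Irf1, -1.25 for Tapbp, -1.02 for Lgals3bp and 3.16 for Ms4a2. It was nearer to 0 or of the opposite sign for other genes of large 0 d change, -0.49 for Irf7, -0.56 for Psmb9, 0.07 for Tapbpl, 0.36 for Cfi, 0.26 for Gata5, 0.20 for Muc1 and 0.21 for Fth1. These genes were chosen after their values were seen.

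For 541 genes (4.12%) the siRNA effect differed between cells with and without TGFbeta, by a test of the difference itself. Of these, 190 were stable at 0 d, against 1363 stable genes among all 13135 tested. Stable genes were chosen by their 0 d change, which also enters this difference, so the overlap is partly built in. Irf1 was not among the 541 genes: it fell by 1.22 at 0 d and by 1.40 with TGFbeta, a difference of -0.18 (adjusted p = 0.69). Cfi rose by 6.18 at 0 d, whereas with TGFbeta it was at 6.59 and 6.89 CPM with siCtr and at 7.65, 8.5 and 10.8 CPM with siIrf1, a difference between the effects of -5.76 (adjusted p = 0.00153). Gata5 and Agt, which fell by 4.13 and 3.94 at 0 d, were at most 0.50 CPM in all TGFbeta libraries. Oasl2 was at 23.6 and 22.6 CPM with siCtr and 13.3, 12.9 and 21.9 CPM with siIrf1 under TGFbeta, and its effect differed by 4.10 (adjusted p = 0.00287). Cdh1, not called at 0 d, was higher with siIrf1 under TGFbeta (0.93), a difference of 1.01 (adjusted p = 0.0262).

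**Figure D5:**
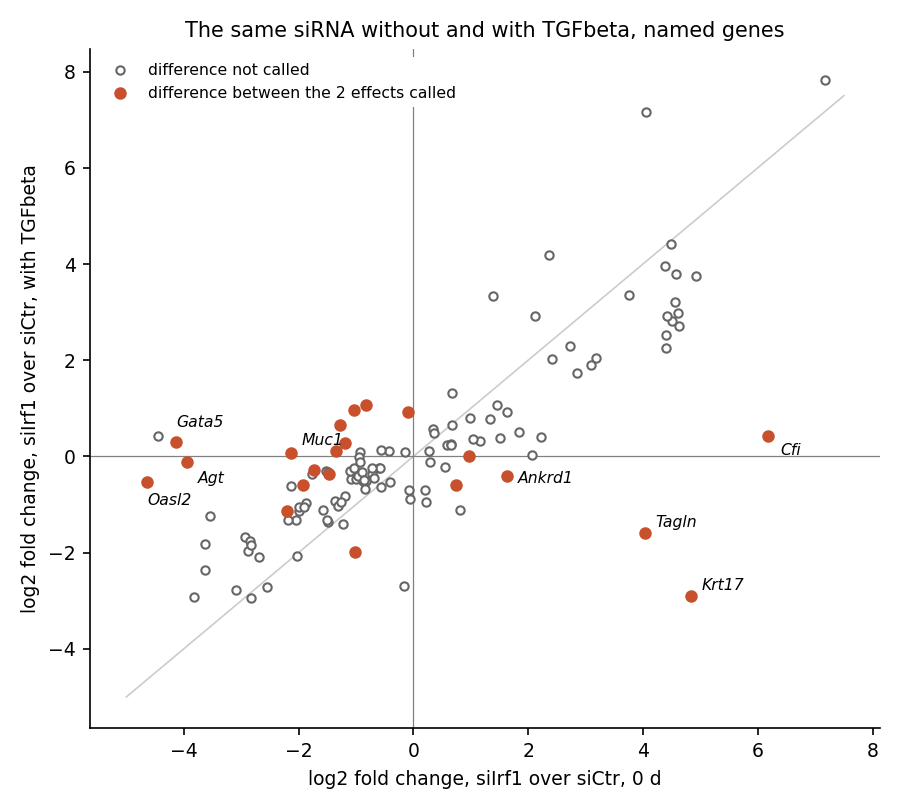
Log2 fold change of siIrf1 over siCtr without TGFbeta (x axis) and with TGFbeta (y axis) for the 124 named genes that were tested; filled red points are the 21 genes whose 2 effects differ (adjusted p under 0.05), and the grey line marks equal effects. Cfi, Tagln and Krt17 lie far right of the line, and Gata5, Agt and Oasl2 lie above it.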

How the data were processed

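RNA sequencing counts per gene were used for 10 libraries, of which 5 form the 0 d comparison. The authors deposited 1 table of counts (whole numbers, not normalized) for 24454 Entrez genes with 1 length per gene. Alignment with STAR to mm10 (GRCm38) is named, without roles or settings, per the submitters' processing notes, and neither the counting tool nor its strand setting is given in the sources used here. Symbols came from RefSeq for 24374 genes and from GENCODE for 6, and 74 were not matched. GC content was read from each gene's longest GENCODE transcript (99.1% of genes tested, the others at the median).

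Genes passing edgeR's filterByExpr were scaled by TMM and tested with the quasi-likelihood test (edgeR 4.0.16, R 4.3.3) in 1 fit of the 4 groups, with Benjamini-Hochberg adjustment over 13135 genes and a threshold of 0.05 (6 residual degrees of freedom). CPM values use the TMM library sizes. The trend was removed with splines of 5 degrees of freedom each for GC content and log2 length, per library, as offsets (4 each with product terms in the joint removal). The scripts were tested on simulated data. Alternatives were DESeq2 1.42.0, other scaling and filters, a replicate term, and leaving out each library.

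The comparison, gene lists and tests were chosen with earlier results of these data known. Genes named were Irf1 and its family, the 10 largest rises and falls (at least 5 CPM, no overlap), the same among stable changes, up to 3 called genes per list by adjusted p, and preset junction, EMT and antigen presentation genes. Some genes under this rule are not reported here. Other list members named were chosen after their values were seen. Ratios of single libraries use CPM plus 0.25.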

Additional observations from a re-analysis of the deposited data

Results flagged for a closer look

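For 21 of the 124 named genes the siRNA effect (log2 fold change of siIrf1 over siCtr) differed between cells with and without TGFbeta, by the interaction term of the edgeR quasi-likelihood fit at an adjusted p under 0.05, against 4.12% of all genes tested. Many of the named genes were chosen for a large or clear change at 0 d. That same 0 d change enters the difference, so the share among named genes is raised by the choice itself. The values below are the effect with TGFbeta minus that without. Each of the 21 differences was also called after either removal of the trend.

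The effect was lower with TGFbeta for Krt17 (-7.74), Cfi (-5.76), Tagln (-5.62), Ankrd1 (-2.05), Lif (-1.34), Tpm1 (-0.97) and Itgb3 (-0.96). Krt17 had 0 counts with siCtr at 0 d and 10 in all with siIrf1, and Tagln had 2 and 70, so that the 0 d part of both rests on few counts. It was higher with TGFbeta for Gata5 (4.43), Oasl2 (4.10), Agt (3.83), Muc1 (2.21), Lcn2 (2.00), Herpud1 (1.95) and Erbb3 (1.89). The same direction was seen for Foxf2 (1.48), Fth1 (1.46), Tapbpl (1.45), C3 (1.34), Ppl (1.11), Lgals3bp (1.06) and Cdh1 (1.01). Gata5 and Agt were at most 0.50 CPM in all TGFbeta libraries of both siRNAs, so a fall could hardly be seen there. The effect of Erbb3 was -0.82 at 0 d and 1.06 with TGFbeta, that of Lcn2 -1.03 and 0.97, and that of Herpud1 -1.28 and 0.66, so that these genes were called in opposite directions in the 2 states.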

How the results depend on the processing

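The fall of Irf1 passed the threshold in every setting run, from -0.89 to -1.40. The 4175 genes called at 0 d became 1700 to 4555 when 1 library was left out: 1700 without siCtr replicate 1, 2583 without siIrf1 replicate 1 and 2245 without siIrf1 replicate 3. With 1 control library left, it is assumed to vary like the other groups. With the trend removed the count was 4754, and 2753 to 4917 when 1 library was also left out (2753 without siCtr replicate 1). Without siCtr replicate 3, 66.8% of calls were higher, against 51.2% in the fit of all libraries, and 41.2% were higher when the length trend alone was removed, which moved the median of all genes to -0.16. DESeq2 called 5175 genes. With TGFbeta, 2365 genes were called as counted, 3606 with the trend removed and 3625 after the joint removal. For the difference of the effects the counts were 541, 1244 and 1344, and 1171 with DESeq2. The causes of these moves were not tested. Of 109 named genes called, besides Irf1, 34 changed call under at least 1 alternative. Values of opposite sign were -0.81, -0.88, -0.83 and -0.73 for Ocln (0.34 as counted), 0.41 and 0.48 for Krt18 (-0.06) and -0.97, -1.05 and -1.04 for Casp1 (0.21), all with a GC trend removed. A paired fit with the replicate number as a block called 5233 genes. The titles carry a code that runs with the replicate number and that the labels do not explain. The groups share only numbers 1 and 3, whose libraries had correlated deviations (0.118 and 0.303). However, siCtr replicate 1 had a correlation of 0.146 with siIrf1 replicate 2. The deviations of the 2 siCtr libraries mirror each other, so these correlations are not separate evidence on pairing. With 2 shared numbers and no stated batch, whether the numbers pair the libraries was not settled, and they share only a number here.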
